A study of Mus musculus with 6 samples.

Results

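The SLAM receptors and their adaptor SAP were examined in iNKT cells at stage 0 from BALB/c and SKG thymi, through 6 genes: Slamf1 (SLAM), Slamf6 (Ly108), Ly9, Cd84 and Cd48, which encode receptors, and Sh2d1a, which encodes SAP. The genes were chosen by symbol for their known place in iNKT cell selection and not by their values, although earlier results of these data were known. All 6 were found among the 48397 genes of the count table. Stage 0 is the first iNKT stage after positive selection. RNA was sequenced from 3 BALB/c and 3 SKG libraries, each made from about 1000 cells taken from the thymi of 3 mice aged 8 to 10 weeks, so that each replicate pools animals. The cells bound the PBS57-CD1d tetramer and were CD44-, CD24+, CD69+, CD4lo/- and CD8-. The BALB/c libraries carry wild-type Zap70, and SKG mice carry a hypomorphic point mutation of Zap70, the kinase that relays TCR signals, on the BALB/c background. The mutation is in the germ line, so every cell of the SKG thymus carries it, the thymocytes that select the iNKT cells included.

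SLAM receptors are cell-surface proteins of the immunoglobulin superfamily. Most of them bind the same receptor on a neighbouring cell, and their cytoplasmic tails hold tyrosine motifs that are bound by the SH2 domain of SAP. SAP in turn brings the kinase Fyn to the receptor. iNKT cells are selected on double-positive thymocytes, which present CD1d and SLAM receptors together, and mice without SAP or Fyn make few or no iNKT cells. Cd48 differs from the other receptors in having a lipid anchor and no cytoplasmic tail, and its partners are Cd244 and CD2.

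Counts on genes ranged from 37176544 to 43115544 per library, and the genes with at least 10 reads from 10835 in SKG replicate 3 to 14791 in SKG replicate 1. The CD3 chains and Lat were abundant in all libraries and the 6 T-lineage markers summed to 3023 to 3867 CPM in BALB/c and 2912 to 3533 CPM in SKG, but Thy1 lay between 0.189 and 17.8 CPM. CPM are reads per 1000000 reads of a library after TMM scaling. The stage 0 markers Egr2, Cd69 and Cd24a summed to 1496 to 1911 CPM in BALB/c and 834 to 1223 CPM in SKG, without overlap. Most of this sum was Egr2, and Cd69 was also lower in every SKG library, whereas Cd24a spanned 7.31 to 52.4 CPM in BALB/c and 31.9 to 90.7 CPM in SKG. Markers of other cells overlapped between the genotypes in each of the 7 lists examined. The B-cell list (6 genes) summed to 1.73 to 6.84 CPM in BALB/c and 3.11 to 8.38 CPM in SKG, with Pax5 under 10 reads in every library. The myeloid list (8 genes) reached 99.0 to 228 and 75.3 to 277 CPM, nearly all from Cst3, Lyz2 and Cd68, with Cd14 at 0 reads. The double-positive thymocyte list (9 genes) spanned 72.5 to 467 CPM in BALB/c and 107 to 244 in SKG. The list for mature iNKT1 or NK cells (6 genes) spanned 150.0 to 281 and 202 to 297 CPM and was almost all Il2rb, with Tbx21 and Ncr1 at 0 reads. The dendritic (5 genes), erythroid (6 genes) and thymic epithelial (6 genes) lists stayed at or under 7.47, 69.7 and 86.9 CPM, with Alas2, Krt5 and Psmb11 at 0 reads. Zap70 mRNA was at 498, 472 and 374 CPM in BALB/c and at 322, 338 and 408 CPM in SKG, and since the SKG allele is a point mutation this level does not check the labels.

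The genes of the 5 receptors lie together on chromosome 1 of GRCm38, in 364547 bases between 171588624, the left end of Ly9, and 171953170, the right end of Slamf6. From left to right the order is Ly9 (171588624 to 171607410, minus strand), Cd48 (171682009 to 171705258), Slamf1 (171767127 to 171801184), Cd84 (171839697 to 171890718) and Slamf6 (171917515 to 171953170), the last 4 on the plus strand. Sh2d1a lies on chromosome X from 42502453 to 42529330, plus strand. All 6 are annotated as protein-coding. Zap70 is also on chromosome 1, 134.8 megabases to the left of the cluster. Of the other genes within the cluster 5 had enough reads to be tested, and 0 of these had an unadjusted p under 0.05. Exons of the 5 receptors overlap 0 other counted genes. Sh2d1a shares 1465 exonic bases with Tenm1, which lies on the opposite strand and had 1869 reads over all libraries. Reads in that stretch cannot be assigned to either gene, because the counting ignored strand. All libraries are on the BALB/c background, and whether any bases that differ from GRCm38 changed the counts was not tested.

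**Figure D1:**
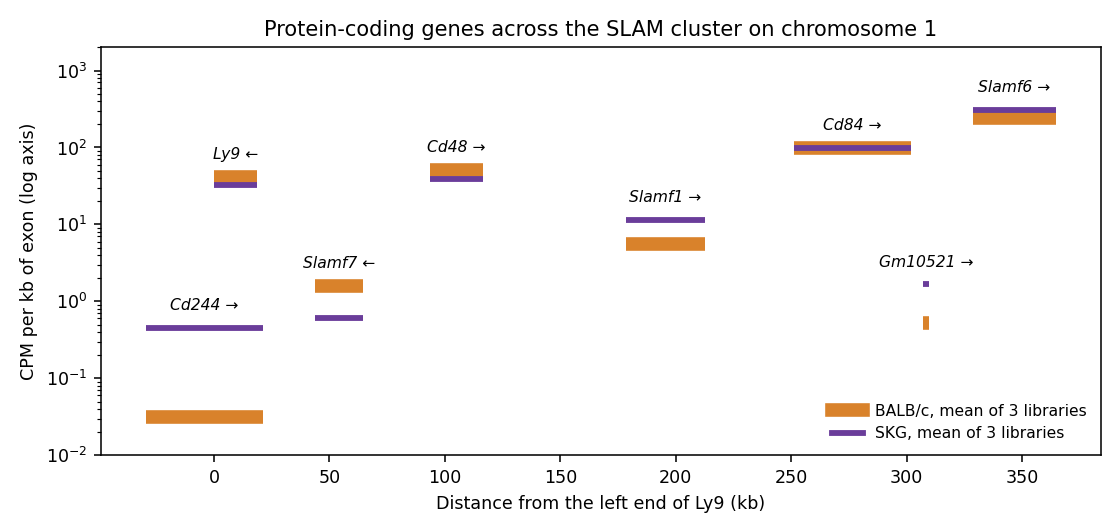
Mean level of each protein-coding gene in the SLAM cluster, plotted over its position. The x axis is the distance from the left end of Ly9 in kb and the log y axis is CPM per kb of exon. Wide orange bars are means of the 3 BALB/c libraries, narrow purple bars those of the 3 SKG libraries, and arrows give the direction of transcription. The plotted genes differ by orders of magnitude, from 275 for Slamf6 at the right end to 0.245 for Cd244, which begins to the left of Ly9 (means of 6 libraries).

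Slamf6 was the most abundant of the 6 mRNAs and ranked 10th by mean CPM among the 12312 genes tested. To compare genes of different length, CPM were divided by the exonic length in kb. By this measure Slamf6 ranked 90th among the 11919 tested genes with a matched length. Levels on this scale were 275 ± 42.4 (SD, n = 6 libraries) for Slamf6, 98.4 ± 4.69 for Cd84, 45.3 ± 19.4 for Cd48, 40.5 ± 11.0 for Sh2d1a, 37.3 ± 9.24 for Ly9 and 8.57 ± 5.52 for Slamf1. Slamf6 exceeded Cd84 in all 6 libraries, by 2.79-fold on average, and Cd84 exceeded Cd48 in all 6 by 2.17-fold, in each case without overlap of their ranges. Cd48, Sh2d1a and Ly9 could not be ordered, since Cd48 was above Sh2d1a in 4 of 6 libraries and Sh2d1a above Ly9 in 3 of 6. Ly9 was 4.36-fold above Slamf1, again without overlap. The order in the middle rests on the length used. With the longest protein-coding transcript in place of all annotated exons, an alternative added after seeing the data, Sh2d1a moved from 4th to 2nd at 182 CPM per kb, level with Cd84 at 179.7, because its annotated exons cover 5505 bases and its longest coding transcript 1223. The 5505 bases include the 1465 shared with Tenm1, whose reads could not be assigned, so the level of Sh2d1a over all exons may be understated. Slamf6 stayed highest and Slamf1 lowest with both lengths, although the ranges of Cd48 and Slamf1 then overlapped.

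The start regions of the highest and the lowest receptor are printed to show both ends of this order. Each runs from 250 bases before to 50 bases after the RefSeq start on GRCm38.p6, plus strand, 5′ to 3′. Capitals mark matches, on either strand, to GNGGGNG (an Egr core), GGAAA (an NFAT core) and TAACNG (a Myb core), letters chosen because Egr and NFAT factors act downstream of the TCR and Myb is known to act on Slamf1, Slamf6 and Sh2d1a.
Slamf6, chr1:171917212-171917511: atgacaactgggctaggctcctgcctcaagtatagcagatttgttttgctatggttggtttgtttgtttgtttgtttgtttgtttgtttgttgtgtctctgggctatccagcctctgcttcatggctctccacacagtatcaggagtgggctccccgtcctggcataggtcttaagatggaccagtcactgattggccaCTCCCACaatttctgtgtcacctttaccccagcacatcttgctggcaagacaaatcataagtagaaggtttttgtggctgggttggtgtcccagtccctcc
Slamf1, chr1:171766882-171767181: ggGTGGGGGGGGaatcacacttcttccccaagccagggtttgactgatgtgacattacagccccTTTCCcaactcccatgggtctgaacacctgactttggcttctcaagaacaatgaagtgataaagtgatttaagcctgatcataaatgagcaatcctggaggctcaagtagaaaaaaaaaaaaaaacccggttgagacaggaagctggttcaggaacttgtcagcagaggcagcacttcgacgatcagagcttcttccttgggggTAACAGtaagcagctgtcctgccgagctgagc
The Slamf6 window held 1 Egr core, 0 NFAT cores and 0 Myb cores. The Slamf1 window held 3 Egr cores, which overlap each other, 1 NFAT core and 1 Myb core. Over the 32851 RefSeq start regions of the same length, 64.7% held the Egr core, 61.3% the NFAT core and 23.3% the Myb core, so the Egr and NFAT letters occur in most start regions. A match describes the sequence and is not evidence of binding. The bases are those of the reference, and whether the BALB/c background shares them was not examined. Of the members, 4 had a start region in the table used, and those of Cd48 and Cd84 held 1 NFAT core each and neither of the other cores.

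To ask whether weaker TCR signalling was accompanied by other levels of these mRNAs, the SKG libraries were set against the BALB/c libraries over all genes by a quasi-likelihood test (edgeR). Calling a gene required an FDR (Benjamini-Hochberg) under 0.1 together with a 1.5-fold change. Of the 6 members 0 were called, as were 0 of the 12312 genes tested (0.00%), and the lowest adjusted p among members was 0.869 (edgeR). At an unadjusted p under 0.05 there was 1 member, Slamf6, against 671 genes or 5.45% of all tested (3.07% higher and 2.38% lower in SKG). Slamf6 was under that p in 9 of 17 alternative fits and over it in the others. SKG and BALB/c libraries lay apart for 1 of 6 members, again Slamf6, and for 13.9% of all genes tested (6.77% higher and 7.12% lower in SKG). A share of 1 in 6 is near that background. Fitted log2 fold changes, SKG over BALB/c, were above 0 for 4 members and below 0 for 2, with a median of 0.18 beside -0.02 over all genes tested. In RNA from bulk cells, fewer cells with an mRNA and less of it per cell cannot be told apart.

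Slamf6 encodes Ly108, a homophilic receptor that acts as a costimulus with the TCR in pre-selection thymocytes. Its mRNA was at 2557, 2449.6 and 2877 CPM in BALB/c replicates 1 to 3 and at 2962, 3380.4 and 3631 CPM in SKG replicates 1 to 3. Every SKG library was above every BALB/c library, but BALB/c replicate 3 and SKG replicate 1 lay close together. The means were 2628 ± 223 CPM (SD, n = 3 libraries) and 3325 ± 338 CPM (SD, n = 3). The fitted fold change was 1.27 (log2 0.34, standard error 0.13, 95% interval 0.04 to 0.64; adjusted p = 0.869 from edgeR), and 3.86% of all genes tested had a lower p. The interval ran from 1.02-fold to 1.56-fold. The counts merge all splice forms of Slamf6. SKG replicate 3, the highest for Slamf6, also had the fewest genes detected the lowest Egr2 (493 CPM) and the highest Lyz2 (107 CPM). Without this library the log2 fold change was 0.28, and a fit that also held the number of detected genes gave a log2 fold change of 0.34 again (adjusted p = 0.879 from edgeR, and 0.431 to 1.0 over all alternatives). The part of Egr2 and Lyz2 in the result was not tested, and a single covariate fit on 6 libraries does not settle that of gene detection.

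Slamf1 encodes SLAM, the other homophilic receptor named for iNKT cell selection. It was at 30.8, 21.8 and 51.6 CPM in BALB/c and at 52.4, 42.1 and 118 CPM in SKG. Replicate 3 was the highest library of each genotype, and BALB/c replicate 3 lay above SKG replicate 2, so the genotypes overlapped. The means were 34.7 ± 15.3 CPM (SD, n = 3) and 70.7 ± 41.0 CPM (SD, n = 3). The fitted log2 fold change of 1.03 (standard error 0.53, 95% interval -0.24 to 2.29, adjusted p = 0.953 from edgeR) was the largest of the 6 in size, and it leaned on SKG replicate 3, without which it was 0.46. Relative to its mean, Slamf1 varied by 44.0% within BALB/c and by 58.0% within SKG, where the median over tested genes and genotypes was 38.0%.

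Cd84 encodes a homophilic receptor that is found on many leukocytes. It had 631, 632 and 579.8 CPM in BALB/c and 604, 660.4 and 595 CPM in SKG. The ranges of the genotypes overlapped, with SKG replicate 2 the highest and BALB/c replicate 3 the lowest library, and the spread was small, at 4.86% of the mean in BALB/c and 5.71% in SKG. The fit gave a log2 fold change of 0.013 with a standard error of 0.12 and a 95% interval of -0.27 to 0.30 (adjusted p = 0.999 from edgeR). Cd84 was the only member whose interval lay within a 1.5-fold change in both directions. The intervals of the other 5 members reached past that size in at least 1 direction.

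Ly9 encodes a further homophilic receptor, also called Slamf3. Its level was 115, 160.2 and 138 CPM in BALB/c and 94.6, 149 and 83.9 CPM in SKG. A pair of SKG libraries lay under all BALB/c libraries, and SKG replicate 2 lay above BALB/c replicates 1 and 3. The log2 fold change was -0.34 (standard error 0.27, 95% interval -0.99 to 0.32, adjusted p = 0.991 from edgeR). It rested on single libraries, at -0.62 without SKG replicate 2, -0.22 without BALB/c replicate 2 and -0.16 without SKG replicate 3.

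Cd48, the receptor without a tail, was at 90.0, 41.2 and 51.6 CPM in BALB/c and at 72.6, 39.1 and 28.7 CPM in SKG. Replicate 1 was the highest library in each genotype, and the ranges overlapped widely. The log2 fold change was -0.38 (standard error 0.48, 95% interval -1.53 to 0.77, adjusted p = 0.991 from edgeR). Without BALB/c replicate 1 it was 0.017, so that the direction rests on this library, and without SKG replicate 1 it was -0.85. BALB/c replicate 1 also had the highest sums of the double-positive thymocyte list (467 CPM) and the erythroid list (69.7 CPM). The myeloid list was highest in SKG replicate 3. The part of other cells in the Cd48 levels was not tested.

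Sh2d1a encodes SAP, a small adaptor made of a single SH2 domain. It was at 214, 136 and 209 CPM in BALB/c and at 209.6, 247 and 322 CPM in SKG. SKG replicate 1 lay within the BALB/c range, and the other SKG libraries lay above it. Means were 186 ± 43.7 CPM (SD, n = 3) and 259.7 ± 57.2 CPM (SD, n = 3), a log2 fold change of 0.48 (standard error 0.25, 95% interval -0.12 to 1.08, adjusted p = 0.957 from edgeR). Leaving out BALB/c replicate 2 gave 0.29, and leaving out SKG replicate 3 gave 0.31.

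**Figure D2:**
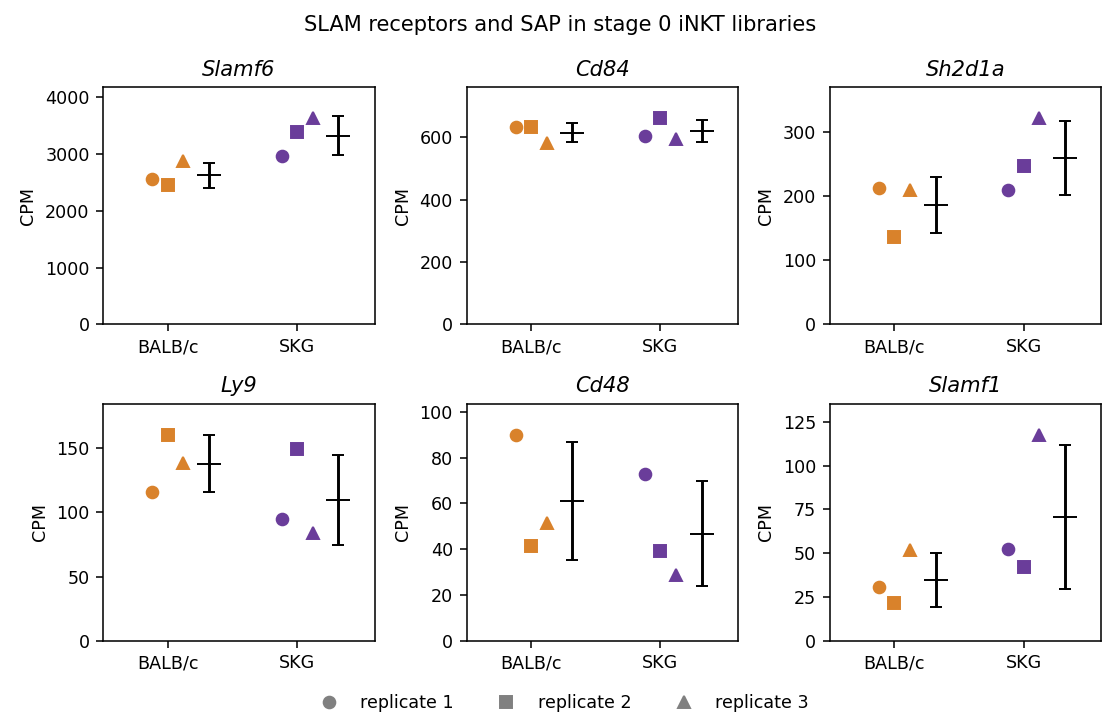
Level of each member in each library. The y axes show CPM and start at 0, with a scale of their own per gene. Symbols mark replicates 1 to 3 of BALB/c (orange) and SKG (purple), and bars to their right the mean and SD of 3 libraries. For Slamf6 the SKG libraries (2962 to 3631) lie above the BALB/c libraries (2449.6 to 2877), and for the other 5 genes the genotypes overlap.

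**Figure D3:**
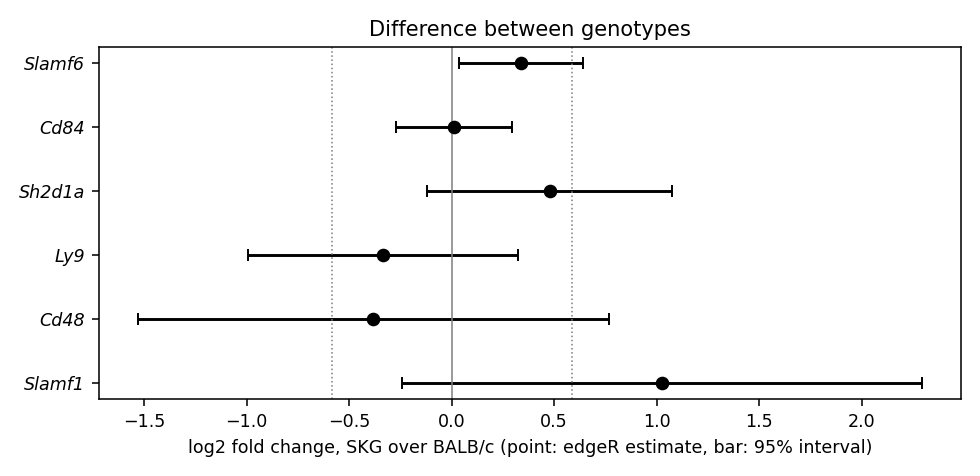
Fitted difference between the genotypes for the 6 members. The x axis is the log2 fold change, SKG over BALB/c, points are edgeR estimates, bars 95% intervals and dotted lines a 1.5-fold change. Intervals are short for Cd84 (-0.27 to 0.30) and Slamf6 (0.04 to 0.64) and long for Slamf1 (-0.24 to 2.29) and Cd48 (-1.53 to 0.77).

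The make-up of the receptor mRNA within a library does not depend on normalization between libraries. Counts per exonic length of the 5 receptors were summed, and the share of each was taken. Slamf6 took 52.2%, 54.7% and 58.8% of the sum in BALB/c and 58.4%, 62.1% and 67.2% in SKG. SKG replicate 1 thus fell just under BALB/c replicate 3. The means were 55.2% ± 3.35 (SD, n = 3) and 62.6% ± 4.40 (SD, n = 3), a difference of 7.37 percentage points (two-sided exact permutation test, p = 0.2, adjusted p = 0.375 over the 5 receptors). With 3 libraries against 3 this test cannot give less than 0.1. With unscaled counts, or with the longest coding transcript as length, the Slamf6 shares of the genotypes did not overlap. The longest coding transcript was chosen after seeing the data. In both settings the exact permutation test gave p = 0.1 (adjusted p = 0.333 and 0.375 over the 5 receptors). Cd84 followed, its share being 22.4% ± 1.94 in BALB/c (SD, n = 3) and, in SKG, 20.2% ± 1.02 (SD, n = 3). Cd48 took 4.84% to 16.7% of the sum over the 6 libraries, Ly9 5.09% to 11.7% and Slamf1 0.857% to 3.83%, and for each the genotypes overlapped. SAP mRNA, set against the receptor sum on the same scale, amounted to 8.59%, 5.98% and 8.43% in BALB/c and to 8.14%, 8.95% and 11.7% in SKG (p = 0.3 by the same exact permutation test). SKG replicate 3 stood at the top and BALB/c replicate 2 at the bottom, and the genotypes overlapped. The ratio may be understated, since the length of Sh2d1a includes the bases shared with Tenm1.

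**Figure D4:**
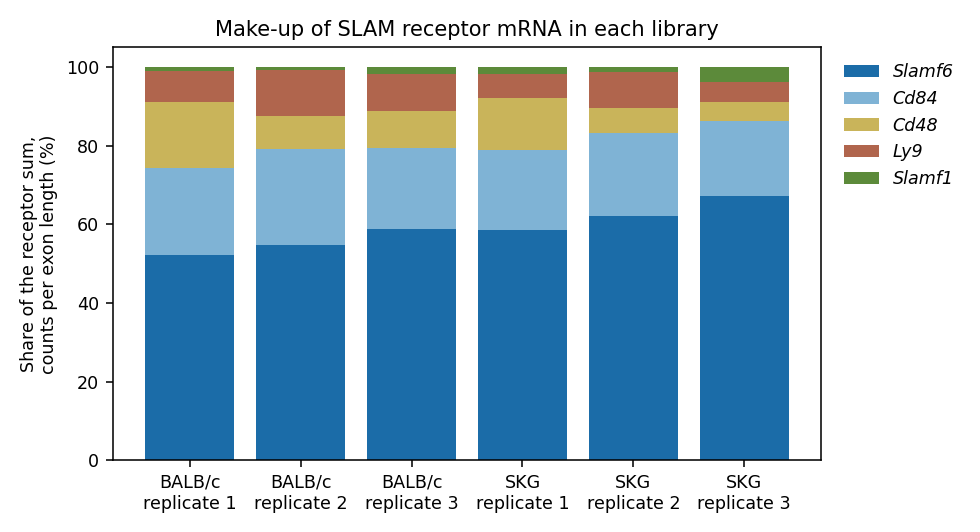
Make-up of the SLAM receptor mRNA in each library. Stacked bars give the share of each receptor in the sum of counts per exonic length, in percent, on an axis from 0 to the whole. Slamf6 makes up 52.2% to 67.2% of the sum in the 6 libraries and Slamf1 0.857% to 3.83%.

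The 6 members did not share a single profile over the libraries. Slamf6, Slamf1 and Sh2d1a were each lowest in BALB/c replicate 2 and highest in SKG replicate 3. Ly9 was the reverse, Cd48 was also lowest in SKG replicate 3, and Cd84 had its ends in other libraries. Likeness was taken as the root mean square distance between centred log2 CPM over the 6 libraries, with no test. For Sh2d1a the nearest other member was Slamf6, at a distance of 0.21, but 114 other genes were nearer, and Slamf6 itself had 448 genes nearer than Sh2d1a. The nearest other member stood at rank 204 for Slamf1, 609 for Ly9, 890 for Cd84 and 2012 for Cd48 among 12311 genes. These distances also depend on how much a gene varies. Cd84, with a root mean square spread of only 0.063, was the nearest member for Ly9 (distance 0.32) and Cd48 (distance 0.56). The spread of Cd48 itself was 0.56, so a flat profile would have been as near to it. The genes closest to each member were Papola for Slamf6, Mgst3 for Slamf1, Pon2 for Cd84, Apba3 for Ly9, Rmi2 for Cd48 and Eri3 for Sh2d1a, at distances from 0.05 to 0.14.

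The rest of the family was scarcely detected in stage 0 cells. Of 6 further genes measured, Slamf7, Slamf8, Slamf9, Cd244, Sh2d1b1 and Sh2d1b2, of which the last pair are near-identical genes for EAT-2 adaptors, 2 passed the filter on low counts and 0 were called. Slamf7 reads numbered 0, 574 and 278 in BALB/c against 0, 4 and 301 in SKG, so it was present or absent within each genotype. Cd244, the receptor for Cd48, was counted at 0, 13 and 5 reads in BALB/c against 187, 11 and 64 in SKG. Its libraries overlapped (adjusted p = 0.952 from edgeR), and with BALB/c so near 0 no fold is given. Slamf9 was found in 1 library of each genotype, BALB/c replicate 1 (253 reads) and SKG replicate 2 (134 reads). Slamf8 had 20 reads in SKG replicate 1 and Sh2d1b1 24 in BALB/c replicate 3, each with 0 elsewhere. Sh2d1b2 had 0 reads in all 6 libraries, where 3 reads correspond to 0.0664 to 0.0830 CPM, so a level under this floor is not detectable at this depth. Reads that match both EAT-2 genes equally would be lost at the mapping quality required, so 0 reads do not show that EAT-2 mRNA was absent. SAP mRNA was counted in every library, at 5047 to 11647 reads.

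Kinases, adaptors and phosphatases that act with SLAM receptors were described next. All 16 genes of this list were tested and 0 were called. At an unadjusted p under 0.05 there were 2, both higher in SKG and both without overlap of the genotypes (over all tested genes 3.07% were higher at this p, and 13.9% lay apart, 6.77% with SKG higher), and the list's median log2 fold change was 0.13. Fyn, the kinase that SAP recruits, was at 543 ± 151 CPM (SD, n = 3) in BALB/c and 708 ± 114 CPM in SKG (SD, n = 3). Its libraries overlapped (log2 fold change 0.38, 95% interval -0.20 to 0.97, adjusted p = 0.982 from edgeR).

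Prkcq encodes PKC-theta, which SAP also binds. It was at 219.9, 286 and 315 CPM in BALB/c and at 369, 414 and 447 CPM in SKG, so that the lowest SKG library lay above the highest BALB/c library. The fit gave 0.58 on the log2 scale with a standard error of 0.18 (adjusted p = 0.830 from edgeR). Ptpn11 encodes SHP-2, a phosphatase that binds the tail motifs of SLAM receptors. It was at 10.8, 34.8 and 44.4 CPM in BALB/c and at 83.4, 98.3 and 88.7 CPM in SKG, again apart (log2 fold change 1.59 with a standard error of 0.52, adjusted p = 0.833 from edgeR). Rasa1, a GTPase-activating protein of Ras that can be recruited by way of Dok adaptors, had the next lowest p, with a log2 fold change of 0.55 and overlapping libraries (adjusted p = 0.952 from edgeR). The phosphatase genes Ptpn6 (SHP-1) and Inpp5d (SHIP-1) had log2 fold changes of -0.07 and -0.16.

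Of 9 transcription factors known to be needed at or after iNKT selection, 0 were called, 2 had an unadjusted p under 0.05, both lower in SKG (2.38% of all tested genes), and 3 had genotypes that did not overlap (13.9% of all tested genes). The list's median log2 fold change was -0.06. The 2 under that p were Egr1 and Egr2. Egr1 was at 1784 ± 208 CPM in BALB/c and 942 ± 49.8 CPM in SKG (SD over 3 libraries each, log2 fold change -0.92, adjusted p = 0.447 from edgeR). Egr2 had a log2 fold change of -0.80 (adjusted p = 0.834 from edgeR), and Ly108 costimulation is known to raise Egr2 in pre-selection thymocytes. Egr1 was also called by DESeq2, and both genes were picked by the study on these samples, so that they are not independent evidence of a direction. Sox4 was at 186, 458 and 440.2 CPM in BALB/c and at 557, 657 and 660.3 CPM in SKG (log2 fold change 0.79, adjusted p = 0.932 from edgeR). Myb, which drives Slamf1, Slamf6 and Sh2d1a in thymocytes, was at 1219, 987 and 953 CPM in BALB/c and 1103, 1315 and 1020.0 CPM in SKG, with overlap (log2 fold change 0.12, 95% interval -0.26 to 0.50, adjusted p = 0.991 from edgeR). Zbtb16, which encodes PLZF and lies downstream of Egr2, had a log2 fold change of -0.34 with overlapping libraries (adjusted p = 0.991 from edgeR).

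**Figure D5:**
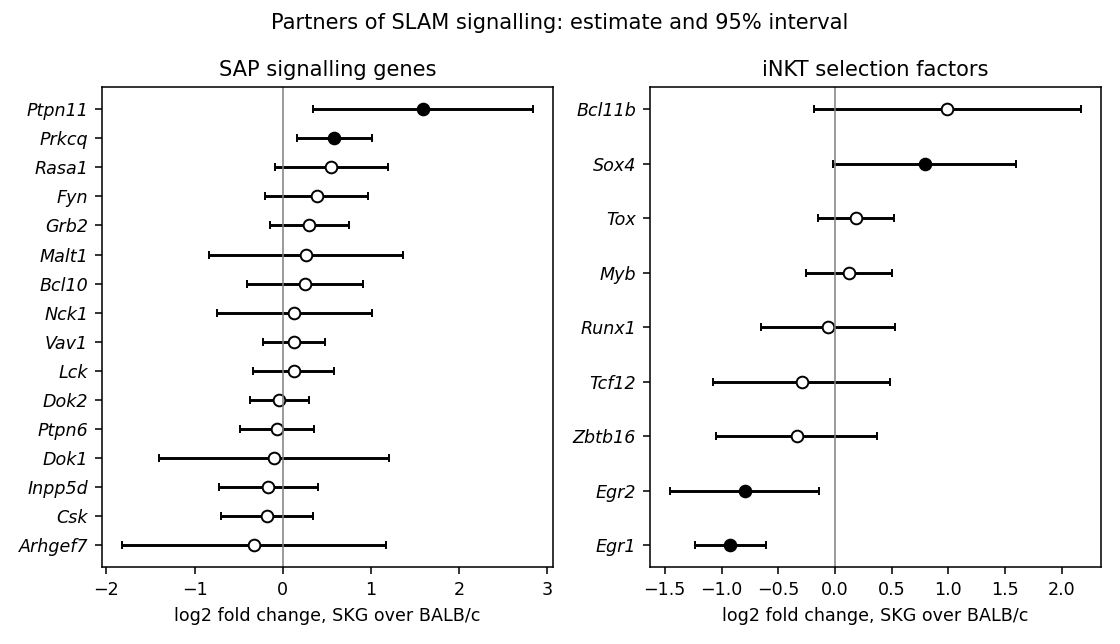
Fitted log2 fold changes, SKG over BALB/c (x axes), of genes that act with SLAM receptors (left) and of iNKT selection factors (right), one gene per row. Bars are 95% intervals, and filled points mark genes with the libraries of SKG and BALB/c apart. Filled points are Ptpn11 (1.59) and Prkcq (0.58) on the left and Sox4 (0.79), Egr2 (-0.80) and Egr1 (-0.92) on the right.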

How the data were processed

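Stage 0 iNKT cells were sequenced with 50-nt single reads. The authors used HISAT2 2.1.0 for alignment to GRCm38 and counted reads on exons, at a mapping quality of at least 10, with featureCounts (Subread 1.4.4) and Ensembl 85 annotation, without strand. The deposited counts are whole reads per gene symbol, neither normalized nor filtered. A second deposited table holds the authors' own DESeq2 comparison and was not used. The labels and the paper name different amplification kits, and which was used was not settled.

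The analysis of the counts used edgeR 4.0.16 under R 4.3.3 (filterByExpr by genotype, TMM, quasi-likelihood F test, Benjamini-Hochberg adjustment over 12312 genes), without covariates. Standard errors are the absolute log2 fold change over the square root of F, and intervals use the test's degrees of freedom. DESeq2 1.42.0 and limma 3.58.1 (voom) were alternatives, as were other normalization, filters, blocks, a covariate and each library left out. The fits were tested on simulated data. Known fold changes were recovered at low dispersion. With the same high dispersion for every gene, near the common dispersion of these libraries (0.842), edgeR and limma-voom called none of them. Most DESeq2 calls were then unchanged genes. Many genes here varied less, with a median spread within genotypes of 38.0% of the mean, and Cd84 at 4.86% and 5.71%. The simulation therefore does not tell what the fits can call for such genes, or how many of the DESeq2 calls here are false. Distances used log2 CPM with a prior count of 2. Lengths and positions come from GENCODE M21 (GRCm38), in which 95.8% of symbols matched 1 gene, and start regions from RefSeq. No pairing by the replicate numbers of the titles or by library numbers was seen over the tested genes as a whole (residual correlations -0.145 to 0.00289). A batch that affects only some genes was not tested. Replicates are separate pools of mice. PCR copies cannot be told from molecules, so the detection floor covers counting error only.

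The members and lists were chosen with earlier results of these data known. Named are all members, Zap70, the further family genes, the 3 genes of lowest p in each list, and each member's nearest gene. Fyn, Ptpn6, Inpp5d, Myb and Zbtb16 were named after their values were seen.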

Additional observations from a re-analysis of the deposited data

How the results depend on the processing

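The median width of the 95% intervals over tested genes was 3.00 on the log2 scale. The 0 called members stayed at 0 under each of 19 alternatives. In 15 of these 19 alternatives 0 genes of the whole table were called, so those could not have called a member. The fold changes of Slamf1, Slamf6, Ly9 and Sh2d1a kept their direction under each of 17. That of Cd84, 0.013 on the log2 scale, turned to -0.035 with upper-quartile normalization, -0.020 with library size alone and -0.010 with the library number as a replicate block. The block by the numbers in the titles, for which no pairing was seen over the genes as a whole, gave 0.34 for Slamf6 and 0.97 for Slamf1 and called 0 genes. Under it Slamf1 and not Slamf6 was the member with an unadjusted p under 0.05. Slamf6 was also over that p with the library-number block, upper-quartile normalization and library size alone, and without BALB/c replicate 1 or 2 or SKG replicate 2 or 3. With 1 library left out, log2 fold changes ranged from -0.025 to 0.055 for Cd84, -0.85 to 0.017 for Cd48, 0.46 to 1.43 for Slamf1, 0.28 to 0.41 for Slamf6, -0.62 to -0.16 for Ly9 and 0.29 to 0.60 for Sh2d1a. Over all genes edgeR called 0 (671 at an unadjusted p under 0.05) and limma-voom 0, while DESeq2 called 370 without and 231 with shrinkage, and edgeR 2 without a filter on low counts and 1 with a stricter filter. DESeq2 called 1 iNKT selection factor, Egr1, in both forms. The cause was not tested.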
